A study of Homo sapiens with 6 samples.

Results

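The replication-dependent histone genes of the human genome lie mainly in a large cluster on the short arm of chromosome 6, where they are interspersed with a dense group of tRNA genes, and in a smaller cluster on chromosome 1. RNA of these regions that was recovered with FLAG-tagged Angel1 is described here from the eCLIP cluster lists. Members were all clusters lying on chromosome 6 between positions 26000000 and 27900000 or on chromosome 1 between 149750000 and 149900000 (GRCh37), whatever their fold or P. They numbered 285 of the 205520 clusters listed, namely 129 of 102843 in FLAG-Angel1 replicate 1, 148 of 96960 in replicate 2 and 8 of 5717 in the control.

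eCLIP recovers RNA that was cross-linked by UV to an immunoprecipitated protein (IP) and compares it with a size-matched input, a sample of the same lysate cut from the same part of the gel. A cluster is a stretch of genome where IP reads pile up on 1 strand. Angel1 belongs to the CCR4 family of deadenylase-like proteins and was studied for its part in the decay of mRNAs in ribosome-associated quality control. All libraries came from the HEK293 cell line (human embryonic kidney cells), in its Flp-In T-REx form, which carries 1 integration site for a tetracycline-inducible transgene. Cells received 5 ng/mL tetracycline for 24 h and UV at 254 nm and 400 mJ/cm2. The groups were FLAG-Angel1 IP (2 replicates), the size-matched inputs of these, and 1 FLAG-only IP with its input. The methods describe the FLAG-only cells as lacking a FLAG fusion protein, whereas the sample labels give the FLAG-Angel1 genotype for all 6 libraries. The methods also mention a sample without UV, and the labels do not say whether the control is that sample. Tagged Angel1 was expressed from the transgene, and nothing in the sources says that the replicates came from separate lines or cultures.

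Replication-dependent histone genes are short and have no introns, and their mRNAs end in a stem-loop in place of a poly(A) tail. They are expressed in S phase to package new DNA, and many genes of H2A and H2B stand head to head and are transcribed away from each other. tRNA genes are shorter still and are transcribed by RNA polymerase III. In the RefSeq gene order for chromosome 6, used for names only since its build is GRCh38, 32 protein-coding histone genes come first, from H1-1 to H4C8, with HFE, a regulator of iron uptake, among them. Next come 47 tRNA genes with members of the butyrophilin family (BTN3A2, BTN2A2, BTN3A1, BTN3A3, BTN2A1 and BTN1A1), HMGN4, ABT1 and ZNF322, followed by 5 histone genes from H2BC11 to H2AC12. A second group of 51 tRNA genes follows, with, among others, PRSS16, POM121L2, ZNF391 and ZNF184, and the stretch ends with 16 histone genes from H2BC13 to H2BC17. No annotation of GRCh37 was used, so clusters are given by position and strand and none is assigned to a gene. Some copies of histone or tRNA genes can be similar in sequence, so reads could be split between copies or left out by the mapping, and the part of this in the values was not tested.

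A share of 20.2% of the clusters of replicate 1 in these regions was enriched over input (26 of 129, Wilson 95% interval 14.1% to 27.9%), where enriched means P below 0.05 with a log2 fold above 0. Of all clusters of that replicate, 11.7% were enriched. In replicate 2 the share was 54.1% (80 of 148, 46.0% to 61.9%), against 40.7% of all its clusters. In the control 4 of 8 clusters were enriched (21.5% to 78.5%), against 91.8% of its whole list. All 8 had 10 or more input reads, a class with 54.7% enriched in the whole control list. The share in the histone regions was thus above that of the whole list in both replicates and below it in the control. No test was made between libraries, because the control has 1 library, and these intervals cover counting error only.

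At the stricter limit of P below 0.001, 10 clusters of replicate 1 (7.75%) and 56 of replicate 2 (37.8%) remained, against 4.22% and 17.0% of the whole lists. None of the 8 control clusters in the regions passed it, against 64.5% of the whole control list. These 8 all had 10 or more input reads, which 17.1% of that list was shown to have. Such clusters made up 21.7% (replicate 1) and 27.0% (replicate 2) of the members, against 3.99% and 7.82% of the whole lists. Shares at this limit were not matched for input reads. Clusters on chromosome 6 made up 110 of the 129, 124 of the 148 and 7 of the 8 members. The share of enriched clusters (P below 0.05) on chromosome 6 outside the region was 13.1% in replicate 1 and 42.4% in replicate 2.

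Clusters of the regions had a median log2 fold of 0.47 in replicate 1, with a 95% interval from the ranked values (0.25 to 0.72) that holds the 0.57 of the whole list. In replicate 2 it was 2.03 (1.84 to 2.14), above the 1.73 of the whole list. Both intervals treat clusters as separate draws, although they share a library and some abut. In replicate 1 the folds ran from −3.10 to 2.52, and 45 of the 129 clusters stood at or below 0. In replicate 2 they ran from −0.59 to 4.67, and 2 of 148 stood at or below 0. The 8 control folds lay between 0.52 and 2.49 with a median of 1.37, below the 5.20 of the whole control list. All 8 had 10 or more input reads. Clusters of the whole control list with known reads and 10 or more input reads had a median of 1.95.

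**Figure D1:**
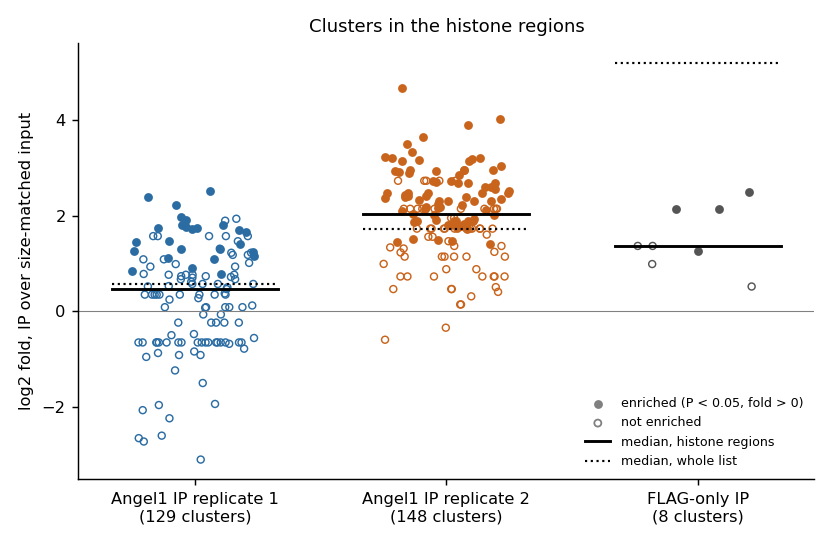
Log2 fold of IP over size-matched input (vertical axis) for every cluster in the histone regions of each library (horizontal axis, points spread sideways for visibility). Filled points are enriched clusters, solid lines the median in the regions and dotted lines the median of the whole list. The control median of 1.37 lies below its whole-list median of 5.20. All 8 control clusters shown had 10 or more input reads, a class with a whole-list median of 1.95 (known reads).

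The lists hold no read counts, but the log2 folds and P values together fixed the reads of nearly every cluster with P below 1. Library sizes came out as 3396701 IP and 722085 input reads (replicate 1), 2543630 and 2812210 (replicate 2), and 209788 and 3249250 (control). The control IP was therefore the smallest library by far, and the input of replicate 1 was the smallest input. Reads were known for 66 of the 129 members of replicate 1, 144 of 148 of replicate 2 and all 8 of the control. For the 63 others of replicate 1, all with P of 1, only the fraction of IP over input reads in lowest terms could be given, as a lower bound on both. Where the input came out as 1 read, the pipeline may have put 1 in place of 0.

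Enriched clusters of the histone regions rested on more reads than those of the whole lists. The median enriched cluster of replicate 1 held 134.5 IP and 8 input reads in the regions, against 76 and 4 in the whole list. In replicate 2 these medians were 42 and 9 reads, against 17 and 4. Counting known reads and lower bounds alike, clusters shown to have 10 or more input reads made up 21.7% of the regions' clusters in replicate 1 (28 of 129) and 27.0% in replicate 2 (40 of 148), against 3.99% and 7.82% of the whole lists. Coverage was uneven along the regions. The stretch chr6:26370612-26598908 held 51 of the 148 clusters of replicate 2, with medians of 6 IP and 2 input reads.

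Among these clusters of 10 or more input reads, all 40 of replicate 2 were enriched (91.2% to 100%), against 76.2% in its whole list. In replicate 1, 12 of the 28 were enriched (42.9%, 26.5% to 60.9%), against 58.5%, a difference within that interval. All 8 control clusters of the regions had 10 or more input reads, a class in which 54.7% of the clusters of the whole control list were enriched. Clusters with P of 1 enter these classes only where their lower bound reached 10 reads, so the shares of enriched clusters are upper limits wherever such clusters were missed. Smaller inputs were compared among clusters with known reads alone. At inputs of 2 to 9 the enriched share was 45.9% in replicate 2 (whole list 45.5%) and 35.1% in replicate 1 (whole list 27.6%). At an input of 1 it was 19.4% in replicate 2 (whole list 26.0%) and 10% in replicate 1 (whole list 12.7%).

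**Figure D2:**
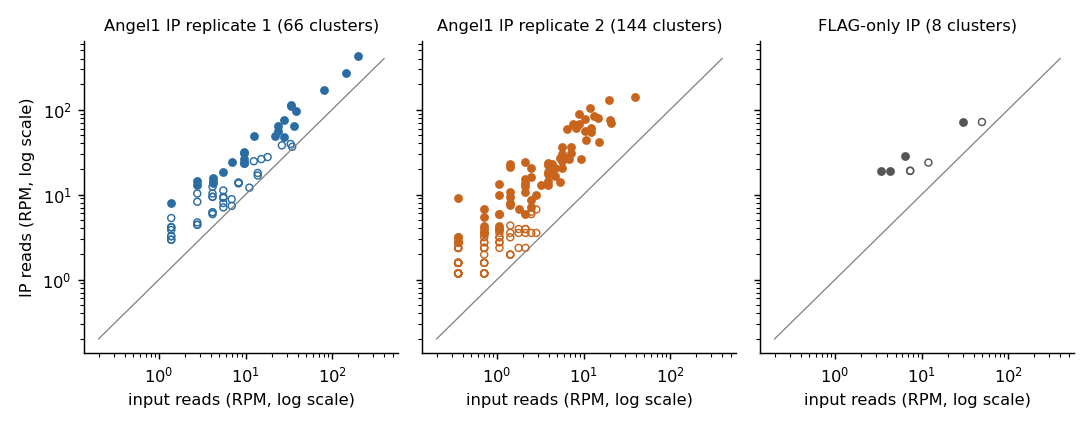
IP reads (vertical axis) against input reads (horizontal axis), each per 1000000 reads of its library (RPM) and on a log scale, for the clusters of the histone regions whose reads were known, 1 panel per library. Filled points are enriched clusters and the line marks equal shares of IP and input. In replicate 2 every cluster shown with 10 or more input reads is filled.

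The replicates placed their clusters in much the same stretches of the regions but not with the same folds. Of the clusters of replicate 1, 66.7% overlapped a cluster of replicate 2 on the same strand by at least 1 nt (86 of 129, 58.2% to 74.2%), against 52.6% of its whole list. Of the clusters of replicate 2, 60.1% overlapped one of replicate 1, against 54.6%. Of the enriched clusters of replicate 1, 23 of 26 overlapped an enriched cluster of replicate 2 (88.5%), and in the other direction the share was 26 of 80 (32.5%). The corresponding shares of the whole lists were 76.8% and 23.9%. All 8 control clusters overlapped clusters of both replicates, against 40.9% and 40.6% of the whole control list. Each of the 8 had 10 or more input reads, which 17.1% of that list was shown to have. The overlap within that class was not computed.

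In the 86 overlapping pairs the fold was higher in replicate 2 in 78 (90.7%), against 81.3% of all overlapping pairs of the series. The median difference was 1.39 on the log2 scale, against 1.10 over the series. Across the 86 pairs the folds had Pearson's r of 0.09 and Spearman's rho of 0.18, against 0.22 and 0.18 over the series. A higher fold in replicate 2 and a weak correlation were thus seen over the whole series as well. The values are a description, since the clusters share their libraries and some lie side by side.

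Clusters were not spread evenly over the regions. With clusters of all 3 IPs joined wherever the gap was at most 60 kb, they fell into 9 blocks, 8 on chromosome 6 and 1 on chromosome 1. The share of enriched clusters differed widely between blocks. In the whole lists it was 11.7% (replicate 1), 40.7% (replicate 2) and 91.8% (control). Blocks also differed in input reads, and their shares were not matched for these.

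The first block, chr6:26020826-26285728, held 35 clusters of replicate 1, 42 of replicate 2 and 5 of the control on both strands. Of these, 10, 35 and 3 were enriched, which is 28.6%, 83.3% and 60% of each. No cluster of replicate 2 there had a fold at or below 0, and the median log2 fold was 2.40 in replicate 2 and 0.37 in replicate 1.

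The second block, chr6:26370612-26598908, held 90 clusters, every one on the plus strand and none from the control. Only 4 of 39 were enriched in replicate 1 (10.3%) and 13 of 51 in replicate 2 (25.5%), both below the shares of the whole lists. Its clusters were thinly covered, with a median of 6 IP and 2 input reads in replicate 2, against 52 and 11 in the first block. Replicates overlapped with enrichment in both at chr6:26458833-26458944, where replicate 1 had a log2 fold of 1.80 (82 IP and 5 input reads) and replicate 2 had 1.80 (22 and 7 reads). They did so again at chr6:26538645-26538730, with 1.74 in replicate 1 (63 and 4 reads) and 2.02 in replicate 2 (11 and 3 reads). These were the 2 places in the block where both replicates were enriched, and their reads in replicate 2 were few.

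The block at chr6:27100174-27115276 spanned 15.1 kb and had the highest shares, with 5 of 8 clusters enriched in replicate 1 and 8 of 8 in replicate 2. One of its 2 control clusters was enriched. Known input reads of this block had medians of 12 (replicate 1) and 23 (replicate 2). Of whole-list clusters with 10 or more input reads, 58.5% and 76.2% were enriched in these replicates. The block at chr6:27775347-27861556 held 12 clusters of replicate 1 and 14 of replicate 2, of which 3 and 11 were enriched, and no control cluster. On chromosome 1 the block at chr1:149783574-149898418 held 19, 24 and 1 clusters, of which 4, 13 and 0 were enriched.

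No cluster of the 4 remaining blocks was enriched in any library. They were a single cluster of replicate 1 at chr6:26687495-26687561 with a log2 fold of −2.65, 5 minus-strand clusters at chr6:26839331-26864276, 7 plus-strand clusters at chr6:27218974-27223159 and 12 clusters of both strands at chr6:27326690-27440252. In replicate 2 their folds ran from 0.14 to 2.14 on medians of 3 or 4 IP reads per block.

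**Figure D3:**
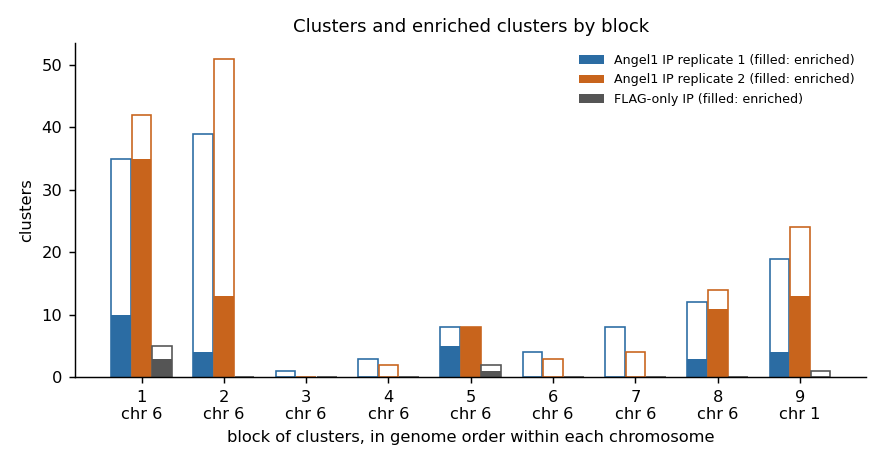
Number of clusters (vertical axis) in each of the 9 blocks (horizontal axis, in genome order within each chromosome) for the 3 IPs. Open bars are all clusters and filled parts are enriched ones, so that block 1 has 35 of 42 clusters of replicate 2 enriched and block 2 has 13 of 51.

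A reproducible peak was a region where clusters of both replicates with P below 0.001 and a log2 fold above 0 overlapped on the same strand. The regions held 8 of the 2243 reproducible peaks of the series. They took in 10 of the 129 clusters of replicate 1 (7.75%) and 11 of the 148 of replicate 2 (7.43%), against 3.20% and 3.54% of the whole lists. All 10 strict clusters of replicate 1 lay in them, against 75.6% over the series, as did 19.6% of the strict clusters of replicate 2, against 20.9%. Folds were higher in replicate 2 than in replicate 1 at all 8 peaks, and 4 peaks also held a control cluster. For each peak the values below are those of its cluster of lowest P in each replicate.

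The peak with the most reads was chr6:26156587-26156742 on the plus strand. Replicate 1 had 1472 IP and 145 input reads there, a log2 fold of 1.11 with −log10 P of 18.8. Replicate 2 had at least 867 IP and 180 input reads, a log2 fold of 2.41 and the highest −log10 P that the lists give (400). The control also had a cluster, with 15 IP and 162 input reads and a log2 fold of 0.52 that was not enriched (−log10 P 0.63). Scaled to library size, the IP had 433 RPM (replicate 1), at least 341 RPM (replicate 2) and 71.5 RPM (control). The inputs had 201, at least 64.0 and 49.9 RPM.

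A second plus-strand peak followed at chr6:26156999-26157085. Replicate 1 had 324 IP and 28 input reads (log2 fold 1.30, −log10 P 5.49), and replicate 2 had 330 and 55 (2.73, 49.9). No control cluster was listed at this peak. Together with the clusters at chr6:26158411-26158763, these peaks filled the plus-strand window chr6:26155001-26160000, which had more clusters than any other 5 kb window of the regions (9 of replicate 1, 7 of replicate 2 and 3 control clusters). All 7 clusters of replicate 2 in it were enriched, with log2 folds from 2.34 to 3.34, whereas those of replicate 1 ran from −0.78 to 1.30 with 5 of 9 enriched.

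At the minus-strand peak chr6:26056567-26056682, the cluster of lowest P in replicate 1 was 22 nt wide and had 386 IP and 24 input reads (log2 fold 1.77, −log10 P 9.12), and that in replicate 2 had 356 and 112 (1.81, 34.2). An enriched control cluster lay over it, with 15 IP and 97 input reads, a log2 fold of 1.26 and −log10 P of 2.64. The adjoining second cluster of replicate 1, which covered most of the same stretch as the control cluster, had 911 IP and 104 input reads and a lower log2 fold of 0.90. At that stretch the control fold thus lay between those of replicate 1 and replicate 2.

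The plus-strand peak at chr6:26204932-26205237 also lay over an enriched control cluster. Replicate 1 had 257 IP and 20 input reads (log2 fold 1.45, −log10 P 5.03), replicate 2 had 150 and 18 (3.20, 26.3) and the control had 4 and 14 (2.15, 1.68). The control fold of this peak again stood between the replicates, on 4 IP reads.

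Both peaks at chr6:27100990-27101287 and chr6:27114481-27114613 lay in the block of 15.1 kb. On the plus strand at the former, replicate 1 had 221 IP and 17 input reads (log2 fold 1.47, −log10 P 4.44) and replicate 2 had 137 and 34 (2.16, 16.6). On the minus strand at the latter, replicate 1 had 189 and 17 (1.24, 3.19) and replicate 2 had 266 and 33 (3.16, 45.7). Neither peak held a control cluster.

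On chromosome 1 the 2 reproducible peaks were both on the minus strand. At chr1:149783683-149783854 replicate 1 had 165 IP and 9 input reads (log2 fold 1.96, −log10 P 4.55) and replicate 2 had 59 and 4 (4.03, 14.4), with no control cluster. At chr1:149857872-149858180 replicate 1 had 371 and 24 (1.72, 8.50), replicate 2 had 205 and 41 (2.47, 28.4), and the control had 4 and 24 (1.37, −log10 P 1.06), which was not enriched.

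**Figure D4:**
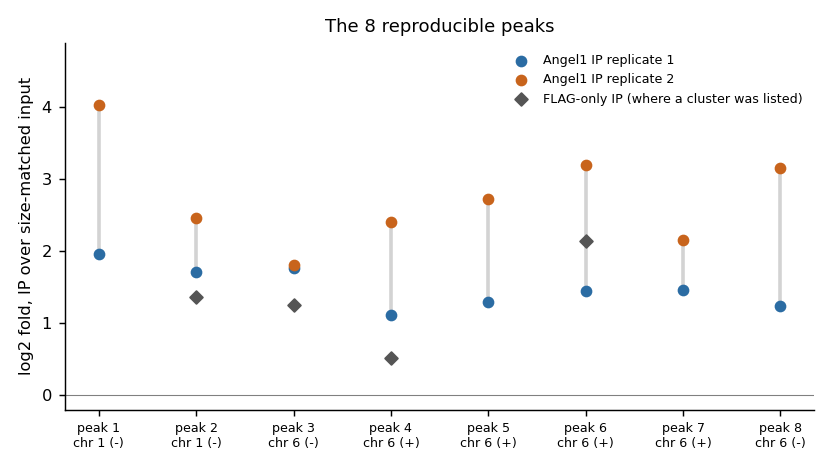
Log2 fold of IP over size-matched input (vertical axis) at the 8 reproducible peaks (horizontal axis, chromosome 1 first and then chromosome 6, by position, with strand in brackets) for the cluster of lowest P in each replicate and the control cluster where 1 was listed. Replicate 2 lies above replicate 1 at every peak, and the control lies between the replicates at peak 6.

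The control clusters in the regions rested on 4 to 15 IP reads. The smallest clusters with known reads in the whole control list held 3 IP reads, 14.3 RPM in this small library, and RNA recovered below that was not listed. Besides the 2 over reproducible peaks, the enriched control clusters were chr6:26158533-26158557 (plus, 4 IP and 11 input reads, log2 fold 2.49) and chr6:27100192-27100298 (minus, 6 and 21 reads, log2 fold 2.15). At the former, replicate 1 had 220 and 26 reads (log2 fold 0.85) and replicate 2 had 156 and 23 (2.91). At the latter, replicate 1 had a log2 fold of −1.96 with P of 1, on at least 63 IP and 52 input reads, and replicate 2 had 66 and 19 reads (1.94).

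Besides the 2 at peaks named above, the other control clusters that were not enriched were 2 in number. The cluster at chr6:26158687-26158730 (plus) had 4 IP and 24 input reads and a log2 fold of 1.37, where replicate 1 had −0.78 and replicate 2 had 2.69. The cluster at chr6:27114311-27114397 (minus) had 5 and 39 reads and a log2 fold of 0.99, where replicate 1 had −0.47 and replicate 2 had 1.89. Over the 8 control clusters, all 8 were overlapped by enriched clusters of replicate 2 and 5 by enriched clusters of replicate 1. The shares of the whole control list were 29.6% and 18.0%, and they were not matched for input reads.

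Clusters were joined into islands wherever the gap on the same strand was at most 500 nt. The 98 islands of the regions had a median span of 181 nt and reached 903 nt, against a median of 88 nt over the 85943 islands of the series. Neighbouring islands on opposite strands within 1000 nt formed 10 pairs among the 98 islands, against 1228 pairs among all 85943. Of the 10 pairs, 9 were divergent, with the minus-strand island to the left and the plus-strand island to the right (90%, 59.6% to 98.2%). In the whole series 957 of 1228 were (77.9%), a share within that interval, so most such pairs were divergent in the whole series too. In the RefSeq order of chromosome 6, 8 of 10 adjacent genes of H2A and H2B are placed in the same divergent way, and no pair of islands was matched to a pair of genes.

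The islands of the 9 divergent pairs spanned 71 to 444 nt, and the gaps between them were 345 to 630 nt with a median of 494. Among clusters in these islands, 29 of 37 were enriched in replicate 2 (78.4%, 62.8% to 88.6%) and 11 of 34 in replicate 1 (32.4%, 19.1% to 49.2%). Among all other members the shares were 45.9% (51 of 111) and 15.8% (15 of 95). These others include the second block and the blocks without an enriched cluster, which held no divergent pair. Among all clusters of the blocks with a reproducible peak, the shares were 75.7% (56 of 74) in replicate 2 and 30.6% (19 of 62) in replicate 1. Those lay near the shares in the divergent islands. These blocks were picked for holding clusters of P below 0.001, however, and several divergent pairs lie within them. The comparison therefore cannot tell whether high shares were particular to these islands. In replicate 2, 6 pairs had an enriched cluster in both arms, 2 in a single arm and 1 in neither. In replicate 1 these numbers were 2, 4 and 3. The control had an enriched cluster in a single arm of 1 pair. Arms were scored for these 9 pairs alone, and not for other divergent pairs of the series. Whether both arms were enriched more often here than elsewhere was thus not tested.

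The pair at chr6:27100174-27101287 was enriched in both arms in both replicates. Its minus-strand arm reached log2 folds of 1.42 (replicate 1), 2.36 (replicate 2) and 2.15 (control), and its plus-strand arm reached 1.47 and 2.16 with no control cluster. The pair at chr6:27114289-27115276 was the other one with both arms enriched in both replicates, reaching 1.70 and 3.16 on the minus strand and 0.78 and 2.68 on the plus strand. These pairs made up the block of 15.1 kb.

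Arms of other pairs differed in enrichment. At chr6:26123794-26124898 all 3 clusters of each arm were enriched in replicate 2, with log2 folds of 2.14 to 3.04 on the minus strand and 1.87 to 2.33 on the plus strand. In replicate 1 of that pair, 2 of 5 minus-strand clusters were enriched, with log2 folds of 1.74 and 1.91 on 3 input reads each, and neither plus-strand cluster was (0.37 and 0.12).

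At chr6:26199100-26200147 the minus-strand arm held 3 enriched clusters of replicate 2, among them the highest fold of that replicate in the regions, 4.67 at chr6:26199334-26199374 on 23 IP reads and an input of 1. The 3 clusters of replicate 2 in the plus-strand arm had log2 folds of 1.24 to 1.95 and were not enriched, and no cluster of replicate 1 was enriched in either arm. The reverse was seen at chr6:27805798-27806812, where the enriched clusters of both replicates were all on the plus strand. On chromosome 1, the pair at chr1:149857761-149858863 was enriched in both arms in replicate 2, while in replicate 1 its plus-strand cluster had the lowest fold of all members, −3.10, on at least 11 IP and 20 input reads.

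**Figure D5:**
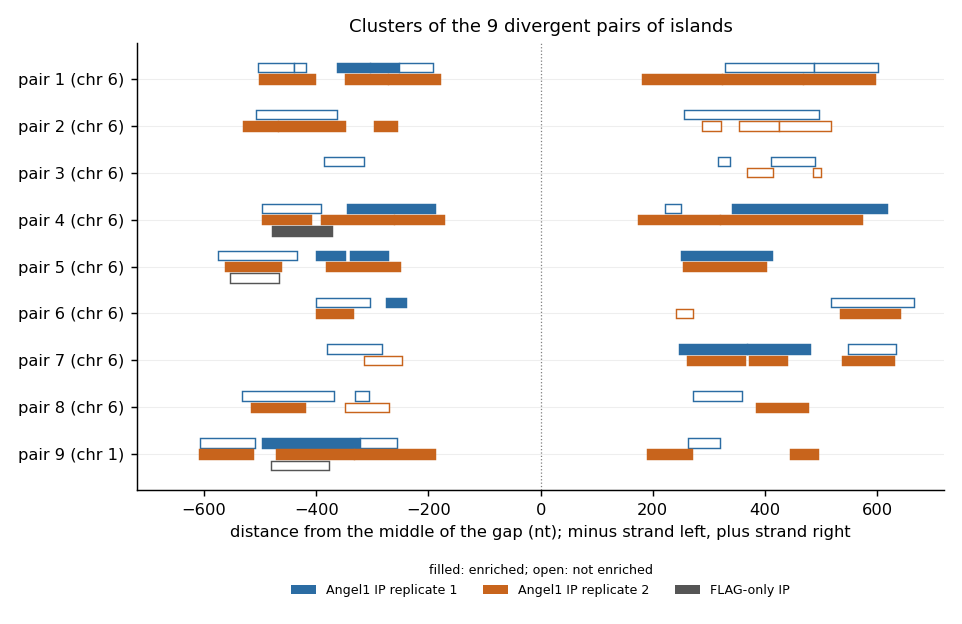
Positions of the clusters of the 9 divergent pairs of islands as distance in nt from the middle of the gap (horizontal axis), with 1 row per pair (vertical axis) and 3 tracks for the IPs. Filled bars are enriched clusters and open bars are not, and 6 pairs have filled bars of replicate 2 on both sides of the gap. The same count was not made for other divergent pairs of the series.

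The highest folds of the regions came from clusters with few input reads. In replicate 1 they were 2.52 at chr6:26597197-26597333 (plus, 27 IP reads and an input of 1), 2.38 at chr6:27775471-27775506 (minus, 49 and 2) and 2.23 at chr1:149785035-149785129 (minus, 44 and 2). After the cluster on an input of 1 named above, replicate 2 had 4.03 at chr1:149783704-149783772 (minus, 59 and 4), within a reproducible peak, and 3.90 at chr6:27806716-27806809 (plus, 54 and 4). None of the 3 clusters of replicate 1 passed P below 0.001, whereas all 3 of replicate 2 did.

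On a grid of 5 kb windows counted by strand, 74 of the 820 windows of the regions held a cluster of any IP (9.02%). Replicate 1 occupied 66, replicate 2 occupied 61 and the control 6, and 53 were shared by the replicates (80.3% and 86.9% of theirs, against 73.5% and 75.5% of occupied windows over the series). The 6 control windows were occupied by both replicates as well. Enriched clusters lay in 17 windows in replicate 1 and 38 in replicate 2, and 15 had them in both. Windows with enriched clusters were not counted over the series. Whether this sharing differed from that elsewhere was therefore not tested.

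In 4 windows all 3 IPs had an enriched cluster, and such windows were not counted over the series either. They were chr6:26155001-26160000 and chr6:26205001-26210000 on the plus strand, and chr6:26055001-26060000 and chr6:27100001-27105000 on the minus strand. In chr6:26055001-26060000 all 4 clusters of replicate 2 and both of replicate 1 were enriched, with log2 folds of 1.81 to 3.19 and of 0.90 to 1.77.

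The 10 fullest windows held 91 of the 277 clusters of the replicates (32.9%). Of the 10, 6 lay in the second block, namely chr6:26390001-26395000, chr6:26595001-26600000, chr6:26465001-26470000, chr6:26375001-26380000, chr6:26405001-26410000 and chr6:26420001-26425000, all on the plus strand and with 0 to 3 enriched clusters in either replicate. In chr6:26465001-26470000, 3 of 4 clusters of replicate 2 were enriched and 0 of 4 of replicate 1. The minus-strand windows chr6:26120001-26125000 and chr1:149855001-149860000 had all 3 and all 4 clusters of replicate 2 enriched, whereas chr1:149895001-149900000 held 7 clusters of both replicates with none enriched.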

How the data were processed

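In total, eCLIP cluster lists for 3 IPs were considered, FLAG-Angel1 in 2 replicates and 1 FLAG-only control. Per the methods and labels, the authors mapped reads to hg37 (GRCh37) with an eCLIP pipeline (cutadapt, STAR, SAMtools and UMI-tools are named in the submitters' processing notes), called clusters in each library and normalized each to its size-matched input. The authors deposited, for each cluster, how far IP exceeded input as a log2 fold and the strength of that excess as −log10 P, with a maximum of 400.

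Enriched clusters had P below 0.05 and a log2 fold above 0. Reproducible peaks were merged from clusters with P below 0.001 lying on 1 strand in both replicates with an overlap of 1 nt or more. Reads were recovered from the fold, taken as a ratio of whole numbers, and the P, taken as Fisher's exact or the Yates chi-square test. A solution had to match within 0.0001 of the larger of 1 and the value, and was found for 99.8%, 100.0% and 99.5% of clusters with P below 1 (replicate 1, replicate 2, control). On simulated data with the sizes of each library, 500 of 500 clusters and 100 of 100 planted peaks were recovered. The simulated P came from the same tests and library sizes that the recovery used, and only P below 1 was simulated. This therefore checks the arithmetic, and not the library sizes or the test the authors used. A read across abutting clusters may be counted in both. Shares carry Wilson 95% intervals. Python 3.11.15, numpy 2.4.6, pandas 2.3.3, scipy 1.17.1 and matplotlib 3.10.9 were used. The regions named are every reproducible peak and enriched control cluster, the 10 fullest windows, the 3 highest folds per replicate and windows enriched in all IPs; others named were chosen after their values were seen. The regions, lists and tests were chosen with earlier results of these data known, and the joining into islands, blocks and pairs was set on the clusters themselves.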

Additional observations from a re-analysis of the deposited data

How the results depend on the processing

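No paired analysis was possible because clusters were called separately in each IP and the control has 1 library, so FLAG-Angel1 and control share fewer than 2 replicate numbers. Each fold already sets an IP against its own input. Without replicate 1 or replicate 2, the strict clusters of the other numbered 56 or 10 in place of 8 reproducible peaks. Requiring P below 0.05 in place of 0.001 gave 18 peaks, and requiring a log2 fold of at least 3 gave 0. Enriched clusters at P below 0.001 fell to 10 in replicate 1 and 0 in the control, and a further limit of 3 on the log2 fold left 0 (replicate 1), 12 (replicate 2) and 0 (control). With clusters of log2 fold above 0 alone, the median of replicate 1 was 0.92. Enriched clusters alone shared 15 windows in place of 53. Settings added after seeing the data gave 5 divergent pairs in place of 9 with neighbours within 500 nt. The cause of these differences was not tested, beyond the smaller number of clusters each stricter limit leaves. Joining abutting clusters, using chromosome 6 alone, ignoring strand and other window sizes moved no count by over 1.5 times. The control IP and the input of replicate 1 were the smallest libraries, and the part of depth in the calls was not tested.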
